A study of Mus musculus with 6 samples.

Results

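The receptors that carry inflammatory cytokine signals into haematopoietic stem cells (HSCs) were described at the RNA level as a set of 10 genes. They are *Il6ra*, *Il6st* and *Csf3r* of the IL-6 and G-CSF receptors, *Il1r1*, the TNF receptors *Tnfrsf1a* and *Tnfrsf1b*, and the interferon receptor chains *Ifnar1*, *Ifnar2*, *Ifngr1* and *Ifngr2*. The genes were chosen by their role, with earlier results of these data known, as the rows of the expression table that carry these symbols. All 10 were found among 46959 rows, and all 10 passed the filter that left 12955 genes for testing. Bulk RNA was sequenced from HSCs sorted from the bone marrow of 8-week-old mice, in 3 control and 3 MaeaCsf1r-Cre libraries of about 2000 cells each, with 2 mice pooled per library. In MaeaCsf1r-Cre mice a Cre recombinase driven by *Csf1r*, a driver classically used for mononuclear phagocytes, deletes the floxed *Maea* gene, which encodes a subunit of an E3 ubiquitin ligase. The controls were littermates, and their alleles at *Maea* and *Csf1r*-Cre are not given for these libraries. Elsewhere in the study the controls were Maea fl/fl mice or Maea fl/+ mice that carried the Cre. Cells that kept *Maea* were not removed by the sort, which used HSC surface markers. The study asked whether cytokine receptors are retained on the surface of HSCs without *Maea*, and the values here show how much RNA for the inflammatory receptors those cells held. Surface protein is not measured by them.

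Cytokine receptors of these families are built from chains that bind the ligand and chains that pass the signal on. IL-6 binds its own chain, encoded by *Il6ra*, and the complex then recruits gp130, the product of *Il6st*, which other cytokines such as LIF, oncostatin M and IL-11 use as well. Receptors for IL-6, G-CSF and the interferons act through Janus kinases and STAT proteins, whereas those for IL-1 and TNF act through adaptor proteins and NF-kB. In the bone marrow these cytokines are known to wake resting HSCs during infection and to favour the output of myeloid cells.

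The libraries rested on 32967000 to 39613000 reads in control and 44157000 to 60934000 reads in MaeaCsf1r-Cre, as computed from the steps between low values, so every MaeaCsf1r-Cre library was deeper than every control library. Values are given in CPM, the counts of a gene scaled to a fixed total of reads. A count of 3 reads corresponded to 0.0492 to 0.0910 CPM. This limit leaves out every error but that of counting. By these estimated depths the values of the 10 receptor genes came to about 142 to 15346 reads each. *Maea* itself was at 108, 116 and 123 CPM in control and 76.9, 88.6 and 101 CPM in MaeaCsf1r-Cre replicates 1, 2 and 3. Its groups did not overlap, and its log2 fold change was -0.39 (SE, the standard error, 0.13, limma adjusted p = 0.967). RNA of the whole gene was counted, which does not separate the deleted exons. The paper reports efficient deletion in stem and progenitor cells with this Cre, from PCR of genomic DNA and staining of MAEA protein. HSC markers were present in every library, with a summed level of 1182 to 1774 CPM in control and 801 to 1468 CPM in MaeaCsf1r-Cre for the 12 genes of the list. Markers of other cells were also found. All 13 macrophage markers had a lower mean in MaeaCsf1r-Cre, with sums of 42.8 to 84.4 CPM in control and 10.8 to 64.0 CPM in MaeaCsf1r-Cre, and 5 of them did not overlap between the groups. The neutrophil list summed to 2.54 to 9.59 CPM in control and 1.65 to 2.36 CPM in MaeaCsf1r-Cre, with *Ly6g* and *Mmp8* at 0 in every library.

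Each gene was compared on log2(CPM + 1), so fold changes of low genes are understated. The p-values measure the spread between these pooled libraries. None of the 10 receptor genes had an adjusted p under 0.05, where 1 of 12955 genes did (0.00772%, *BC023719*, named after its values were seen). This was so in the plain fit and in one that took the replicate number as a block, which likewise called 1 gene of all tested (0.00772%). Of the 10 genes 8 were lower in the mean and 2 were higher, and their median log2 fold change was -0.30. Over all tested genes the median was -0.06 and 60.9% were lower. The directions of the receptor genes leaned on MaeaCsf1r-Cre replicate 1. Without it the log2 fold changes of *Il1r1*, *Tnfrsf1a* and *Tnfrsf1b* were 0.11, 0.04 and 0.12, and *Ifnar2* stayed higher at 0.06. *Ifngr1* was then at -0.06, *Csf3r* at -0.07, *Il6st* at -0.08, *Ifngr2* at -0.15, *Ifnar1* at -0.31 and *Il6ra* at -0.65. The groups did not overlap for 1 receptor gene, *Il6ra*, which was lower in MaeaCsf1r-Cre, as 6.06% of all tested genes were, and for 0 receptor genes in the other direction, against 2.49% of all tested genes. An unadjusted p under 0.05 was reached by *Il6ra* in the lower direction, where 3.19% of all tested genes reached it, and by 0 receptor genes in the higher direction, where 0.803% did. With the replicate block *Ifnar1* joined *Il6ra*, beside 10.8% of all tested genes that were lower at this level and 3.11% that were higher. The shares of the receptor genes rest on 10 genes, and in bulk RNA fewer cells of a type and less RNA per cell cannot be told apart.

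**Figure D1:**
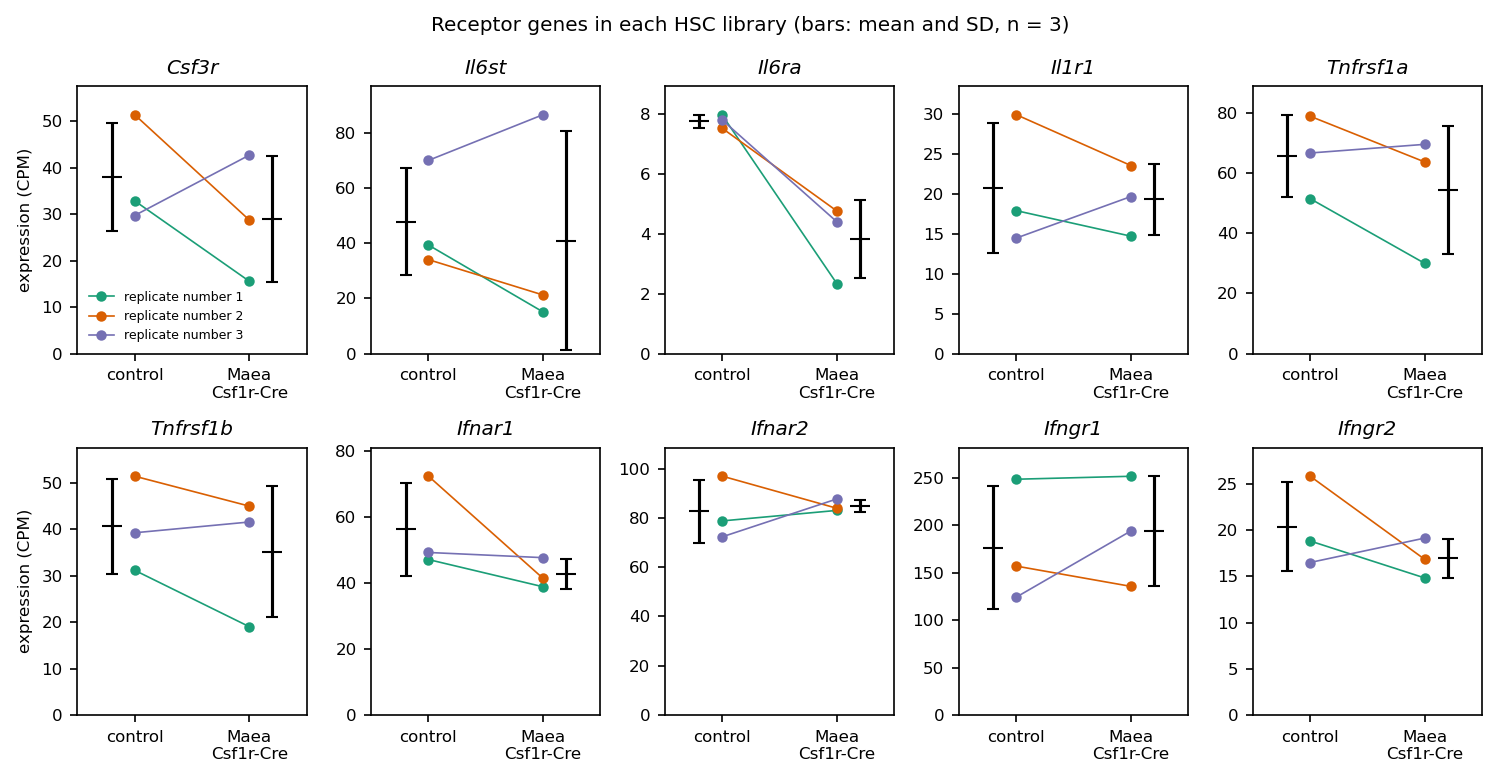
Expression of the 10 receptor genes in CPM (vertical axes, each from 0) in the 3 control and 3 MaeaCsf1r-Cre HSC libraries. Points of one colour joined by a line carry the same replicate number, and black bars give the mean and SD of each group (n = 3). For *Il6ra* every MaeaCsf1r-Cre point, at 2.33 to 4.76 CPM, lies below every control point, at 7.52 to 7.96 CPM, and for the other 9 genes the groups overlap.

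**Figure D2:**
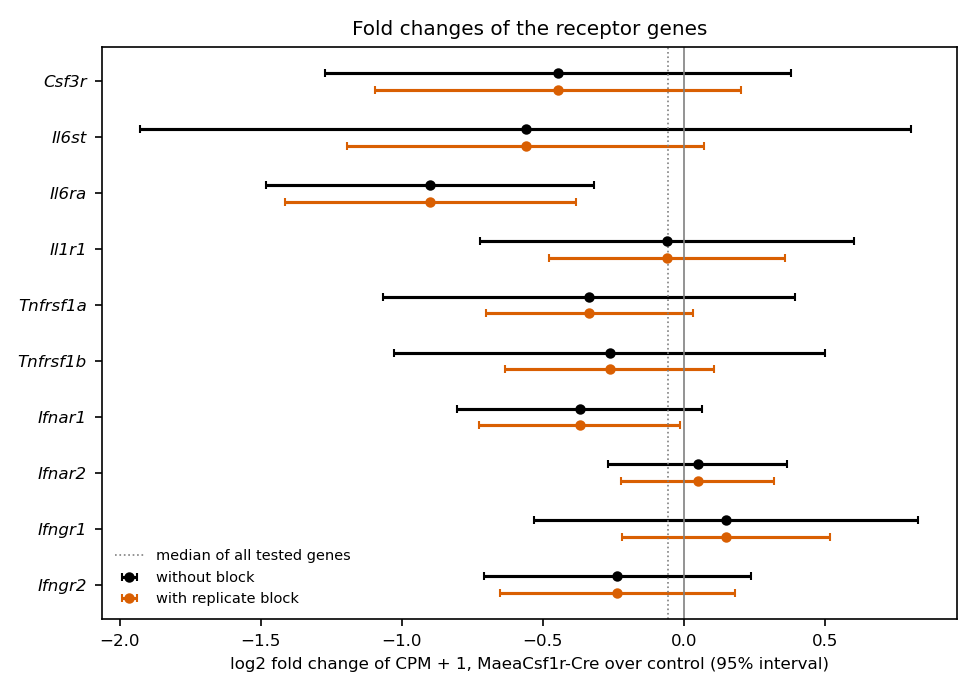
Log2 fold change of CPM + 1 in MaeaCsf1r-Cre over control HSCs (horizontal axis) for each receptor gene, with 95% intervals from limma without (black) and with (orange) the replicate block. The dotted line marks the median of all tested genes at -0.06. The intervals of *Il6ra* lie below 0 in both fits, that of *Ifnar1* with the block alone, and the other intervals include 0.

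The chain that binds IL-6 was the receptor gene with the clearest difference. *Il6ra* (chromosome 3, 89864059 to 89913196, minus strand, GRCm38) was at 7.96, 7.52 and 7.80 CPM in control replicates 1, 2 and 3, and at 2.33, 4.76 and 4.40 CPM in MaeaCsf1r-Cre replicates 1, 2 and 3. The control libraries lay close together, and all 3 MaeaCsf1r-Cre libraries were below them, in each of the 3 pairs of same-numbered libraries. The mean went from 7.76 ± 0.221 to 3.83 ± 1.31 CPM (SD, n = 3 each). On the log2 scale this was a fold change of -0.90 (SE 0.25, 95% interval -1.48 to -0.32), with an unadjusted p of 0.00732 and an adjusted p of 0.967 from limma, and an adjusted p of 0.218 with the replicate block. The difference therefore did not pass the threshold among all genes tested. Over the 17 alternatives that tested the gene, the log2 fold change ranged from -1.07 to -0.64. The 13 macrophage markers moved with it as a list, as did the 8 monocyte markers, whose sums were 10.6 to 34.4 CPM in control and 7.81 to 13.2 CPM in MaeaCsf1r-Cre. The sums of the macrophage and monocyte lists overlapped between the groups, whereas those of the B cell and neutrophil lists did not. The 10 B cell markers summed to 34.0 to 56.0 CPM in control and 13.9 to 27.1 CPM in MaeaCsf1r-Cre, and the neutrophil sums are given above. A lower mean in MaeaCsf1r-Cre was found for 5 of the 10 B cell and 7 of the 12 neutrophil markers. In each of these lists 2 markers were at 0 in every library. Library by library the orders of *Il6ra* and the macrophage list differed. The macrophage sum was 42.8 CPM in control replicate 2 and 64.0 CPM in MaeaCsf1r-Cre replicate 3, whereas *Il6ra* was higher in the former. The part of these cells in the difference was not tested.

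Across the 6 libraries the genes whose log2 values were most like those of *Il6ra* were *9930111J21Rik1* (Pearson's r = 0.992, with a close copy, *9930111J21Rik2*, with which it may share reads), *Rnf208* (r = 0.990) and *Hes5* (r = 0.989), each given as a description over the same libraries. *Hes5*, a transcriptional repressor downstream of Notch, was at 1.87 to 2.07 CPM in control and 1.05 to 1.48 CPM in MaeaCsf1r-Cre. *Rnf208*, which encodes a RING-type protein, was at 5.52 to 6.31 CPM in control and 0.591 to 2.77 CPM in MaeaCsf1r-Cre.

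*Il6st* (chromosome 13, 112464070 to 112510086, plus strand), which encodes the gp130 chain that passes the IL-6 signal on, varied more between libraries than any other gene of the set. It was at 39.4, 34.1 and 70.1 CPM in control replicates 1, 2 and 3, and at 15.1, 21.2 and 86.7 CPM in MaeaCsf1r-Cre replicates 1, 2 and 3. Both libraries numbered 3 were the highest of their group, so that the groups overlapped. The means were 47.9 ± 19.5 and 41.0 ± 39.7 CPM (SD, n = 3 each), with a log2 fold change of -0.56 (SE 0.59, 95% interval -1.93 to 0.80, limma adjusted p = 0.967, and 0.409 with the block). MaeaCsf1r-Cre was lower in 2 of 3 same-numbered pairs. Of the genes of endothelial cells, *Kdr* and *Cdh5* were also highest in both libraries numbered 3. *Kdr*, the VEGF receptor of endothelium, was at 12.4, 2.52 and 32.6 CPM in control and 2.33, 2.49 and 33.4 CPM in MaeaCsf1r-Cre. *Cdh5*, the cadherin of endothelial junctions, was at 5.82, 0.278 and 12.999 CPM in control and 0.624, 0.566 and 22.1 CPM in MaeaCsf1r-Cre. The 9 stromal and endothelial markers summed to 53.3 to 81.8 CPM in control and 24.5 to 93.2 CPM in MaeaCsf1r-Cre, highest in replicate 3 of each group. That peak came from *Kdr* and *Cdh5*. Without them the rest of the list summed highest in replicate 2 of each group. The gp130 partners *Lifr* and *Osmr*, which bind LIF and oncostatin M, were also highest in both libraries numbered 3, at 3.53 and 4.71 CPM for *Lifr* and 2.98 and 4.601 CPM for *Osmr*. The part of these cells in the level of *Il6st* was not tested. Without both libraries numbered 3, an alternative added after the data were seen, the log2 fold change of *Il6st* was -0.99 (limma adjusted p = 0.873), and without MaeaCsf1r-Cre replicate 3 alone it was -1.30 (adjusted p = 0.436). Without MaeaCsf1r-Cre replicate 1 it was -0.08.

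**Figure D3:**
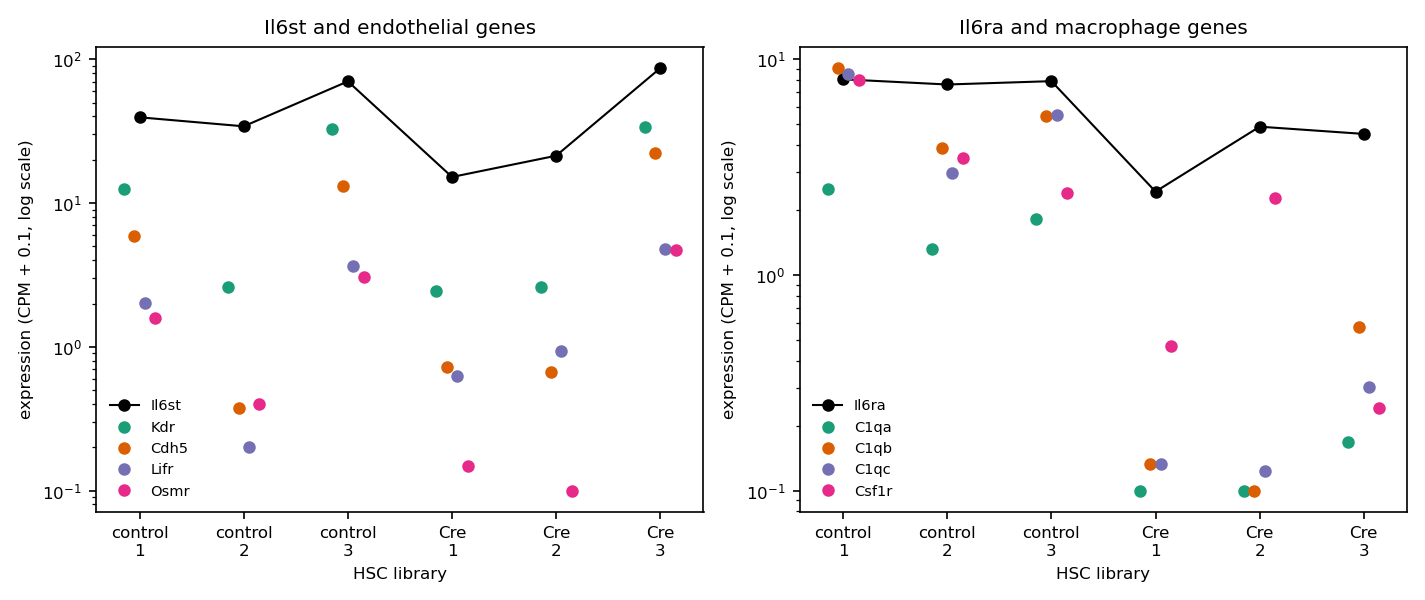
Expression in each of the 6 HSC libraries (CPM + 0.1, log axis) of *Il6st* with endothelial genes and gp130 partners (left) and of *Il6ra* with macrophage genes (right). *Il6st* and *Kdr* were highest in both libraries numbered 3, whereas *Il6ra* was flat over the control libraries, at 7.52 to 7.96 CPM, and *C1qb* was at 3.79 to 8.98 CPM there and at most 0.474 CPM in MaeaCsf1r-Cre.

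*Csf3r* (chromosome 4, 126024550 to 126044440, plus strand) encodes the G-CSF receptor, a relative of gp130 that signals as a pair of identical chains. It was at 32.9, 51.5 and 29.7 CPM in control and 15.6, 28.8 and 42.7 CPM in MaeaCsf1r-Cre replicates 1, 2 and 3. The groups overlapped, with MaeaCsf1r-Cre replicate 3 above 2 of the control libraries, and MaeaCsf1r-Cre was lower in 2 of 3 pairs. The means were 38.0 ± 11.7 and 29.0 ± 13.6 CPM (SD, n = 3 each). This gave a log2 fold change of -0.45 (SE 0.36, 95% interval -1.27 to 0.38, limma adjusted p = 0.967). It was -0.07 without MaeaCsf1r-Cre replicate 1 and -0.77 without MaeaCsf1r-Cre replicate 3.

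The windows around the transcription starts of *Il6ra* and *Il6st* are shown because both chains serve one ligand and differed in how evenly the control libraries expressed them. They run from 250 bases before to 50 bases after the annotated start (RefSeq, GRCm38.p6), at chr3:89913147-89913446 on the minus strand for *Il6ra* and chr13:112463820-112464119 on the plus strand for *Il6st*. Capitals mark a GC box (GGGCGG on either strand), the element bound by Sp1-type factors.
Il6ra: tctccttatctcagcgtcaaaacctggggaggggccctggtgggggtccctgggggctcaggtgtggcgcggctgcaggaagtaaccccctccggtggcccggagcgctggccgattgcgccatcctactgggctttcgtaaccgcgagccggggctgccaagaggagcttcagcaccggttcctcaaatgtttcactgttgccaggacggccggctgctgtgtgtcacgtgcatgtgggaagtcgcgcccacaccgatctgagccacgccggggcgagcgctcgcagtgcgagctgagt
Il6st: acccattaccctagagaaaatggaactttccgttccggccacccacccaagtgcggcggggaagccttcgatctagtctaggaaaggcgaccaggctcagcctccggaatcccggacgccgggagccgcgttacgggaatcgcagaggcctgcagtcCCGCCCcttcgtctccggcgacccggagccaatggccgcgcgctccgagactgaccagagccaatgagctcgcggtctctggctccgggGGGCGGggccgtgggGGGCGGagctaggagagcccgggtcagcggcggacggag
Both windows were rich in G and C, at 66.0% for *Il6ra* and 68.3% for *Il6st* against a median of 52.7% over all windows. *Il6st* held 3 GC boxes and *Il6ra* held 0, where 35.7% of 32851 windows of this length held at least 1. Neither window held a match to the STAT motif TTCNNNGAA, which 8.30% of all windows held. A match is a description of the letters and says nothing of binding.

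The IL-1 and TNF receptors showed no difference larger than the spread between libraries. *Il1r1* (chromosome 1, 40225080 to 40317257, plus strand), the signalling receptor for IL-1, was at 17.9, 29.9 and 14.4 CPM in control and 14.7, 23.5 and 19.6 CPM in MaeaCsf1r-Cre replicates 1, 2 and 3. All 3 MaeaCsf1r-Cre libraries lay within the range of the control libraries. The log2 fold change was -0.06 (SE 0.29, 95% interval -0.72 to 0.60, limma adjusted p = 0.984), and its sign changed in 7 of 18 alternatives.

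*Tnfrsf1a* (chromosome 6, 125349362 to 125362484, plus strand) encodes TNFR1, the death domain receptor for TNF. It was at 51.5, 78.9 and 66.6 CPM in control and 29.97, 63.7 and 69.5 CPM in MaeaCsf1r-Cre replicates 1, 2 and 3. *Tnfrsf1b* (chromosome 4, 145213463 to 145246870, minus strand) encodes TNFR2, which lacks a death domain and recruits TRAF2. It was at 31.2, 51.5 and 39.3 CPM in control and 19.1, 45.0 and 41.6 CPM in MaeaCsf1r-Cre replicates 1, 2 and 3. Both genes were lowest in MaeaCsf1r-Cre replicate 1 and highest in control replicate 2, and the groups overlapped for both. The log2 fold change was -0.34 for *Tnfrsf1a* (SE 0.32, 95% interval -1.06 to 0.39, limma adjusted p = 0.967) and -0.26 for *Tnfrsf1b* (SE 0.33, 95% interval -1.03 to 0.50, adjusted p = 0.967). Without MaeaCsf1r-Cre replicate 1 these values were 0.04 and 0.12. Over the 6 libraries both genes went up and down together, with Pearson's r of 0.981 on the log2 scale, a description over libraries that share their scaling.

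Of the 4 interferon receptor chains 2 had a lower and 2 a higher mean in MaeaCsf1r-Cre, 1 of each for either kind of interferon. *Ifnar1* (chromosome 16, 91485238 to 91507441, plus strand), a chain of the type I interferon receptor, was at 47.1, 72.4 and 49.3 CPM in control and 38.9, 41.4 and 47.7 CPM in MaeaCsf1r-Cre replicates 1, 2 and 3. The groups overlapped by 1 library, since MaeaCsf1r-Cre replicate 3 lay just above control replicate 1, and MaeaCsf1r-Cre was lower in 3 of 3 pairs. The mean was 56.2 ± 14.0 CPM in control and 42.6 ± 4.54 CPM in MaeaCsf1r-Cre (SD, n = 3 each). This gave a log2 fold change of -0.37 (SE 0.19, 95% interval -0.80 to 0.07), with an adjusted p of 0.967 from limma. With the replicate block the unadjusted p was 0.0441 and the adjusted p 0.349. Without control replicate 2, the highest library, the log2 fold change was -0.18.

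*Ifnar2* (chromosome 16, 91372783 to 91405589, plus strand) encodes the partner chain that binds type I interferons most tightly. It was at 78.8, 96.9 and 72.3 CPM in control and 83.04, 83.9 and 87.7 CPM in MaeaCsf1r-Cre replicates 1, 2 and 3. All 3 MaeaCsf1r-Cre libraries fell inside the control range, and this gene varied least over the 6 libraries, by 1.34-fold from the lowest to the highest. The log2 fold change was 0.05 (SE 0.14, 95% interval -0.27 to 0.37, limma adjusted p = 0.981).

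For interferon-gamma, *Ifngr1* (chromosome 10, 19591949 to 19610229, plus strand) encodes the chain that binds the ligand and *Ifngr2* (chromosome 16, 91547072 to 91565623, plus strand) the chain that completes the signalling receptor. *Ifngr1* was at 249, 157 and 124 CPM in control and 252, 136 and 194 CPM in MaeaCsf1r-Cre replicates 1, 2 and 3. The highest libraries were replicate 1 of each group, which were also the highest in the 9 erythroid markers, with sums of 3893 CPM in control and 4152 CPM in MaeaCsf1r-Cre replicate 1 against 854 to 1889.5 CPM in the other 4 libraries. The part of such cells in the level of *Ifngr1* was not tested. The log2 fold change of *Ifngr1* was 0.15 (SE 0.29, 95% interval -0.53 to 0.83, limma adjusted p = 0.973). *Ifngr2* was at 18.8, 25.8 and 16.5 CPM in control and 14.8, 16.8 and 19.1 CPM in MaeaCsf1r-Cre replicates 1, 2 and 3. Its groups overlapped, with a log2 fold change of -0.24 (SE 0.20, 95% interval -0.71 to 0.24, limma adjusted p = 0.967). Without control replicate 2 it was -0.061, without control replicate 3 -0.37, without MaeaCsf1r-Cre replicate 1 -0.15 and without both libraries numbered 3 -0.46.

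*Ifnar2*, *Il10rb*, *Ifnar1* and *Ifngr2* lie in this order on one stretch of chromosome 16, all on the plus strand. *Il10rb* (91406164 to 91425834), the second chain of the IL-10 receptor, was at 32.5, 38.8 and 28.5 CPM in control and 26.3, 29.95 and 34.1 CPM in MaeaCsf1r-Cre, with a log2 fold change of -0.14 (SE 0.17). *Ifnar1* and *Ifngr2* varied together over the 6 libraries (Pearson's r = 0.936), more than *Ifnar1* and *Ifnar2* (r = 0.550), both given as descriptions. The windows around the starts of *Ifnar1* (chr16:91484965-91485264) and *Ifnar2* (chr16:91372533-91372832), both on the plus strand, are shown since these chains form one receptor and their ratio, given next, did not overlap between the groups. Capitals mark matches to the STAT motif and to the GC box.
Ifnar1: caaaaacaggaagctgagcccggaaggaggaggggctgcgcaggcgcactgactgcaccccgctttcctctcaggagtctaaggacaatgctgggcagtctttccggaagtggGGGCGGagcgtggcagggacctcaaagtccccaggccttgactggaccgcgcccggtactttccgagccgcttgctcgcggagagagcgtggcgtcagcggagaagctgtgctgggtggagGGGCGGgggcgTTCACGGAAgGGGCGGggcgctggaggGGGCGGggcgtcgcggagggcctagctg
Ifnar2: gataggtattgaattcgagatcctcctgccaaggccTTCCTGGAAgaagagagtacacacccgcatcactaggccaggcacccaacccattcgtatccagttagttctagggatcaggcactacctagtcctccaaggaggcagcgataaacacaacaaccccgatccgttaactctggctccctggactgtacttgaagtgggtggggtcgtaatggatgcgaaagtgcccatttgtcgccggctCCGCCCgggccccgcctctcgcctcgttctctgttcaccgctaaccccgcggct
The STAT motif began at position -214 from the annotated start in *Ifnar2* and at -5 in *Ifnar1*, which also held 4 GC boxes where *Ifnar2* held 1. Among the 10 receptor genes 4 held a STAT motif in a window, the others being *Tnfrsf1a* and *Tnfrsf1b*, and 7 held a GC box. Of all windows 8.30% held a STAT motif and 35.7% a GC box. *Il1r1* had 2 windows and the other receptor genes 1 each. The GAGGAAGT motif of PU.1, a factor of myeloid cells, was found in 0 of the 10 and in 3.20% of all windows.

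For 6 pairs of receptor chains the log2 ratio of CPM + 1 within each library was compared between the groups by an exact permutation test over the 20 labellings of the libraries (two-sided), whose smallest possible p is 0.1. The log2 ratio of *Ifnar2* to *Ifnar1* was 0.73, 0.42 and 0.55 in control and 1.08, 1.002 and 0.87 in MaeaCsf1r-Cre replicates 1, 2 and 3. Every MaeaCsf1r-Cre library was above every control library. The mean was 0.564 ± 0.157 in control and 0.981 ± 0.107 in MaeaCsf1r-Cre (SD, n = 3 each), a difference of 0.42. Its exact permutation p was 0.1, the smallest the design allows, and 0.6 after adjustment over the 6 ratios. The difference stayed between 0.33 and 0.50 when any library or both libraries of one number were left out. The other 5 ratios overlapped between the groups. The ratio of *Ifngr2* to *Ifngr1* differed by -0.39 (exact permutation p = 0.4, adjusted 0.9) and was lower in MaeaCsf1r-Cre in each same-numbered pair. It was -0.089 without MaeaCsf1r-Cre replicate 1, -0.16 without control replicate 2, -0.62 without MaeaCsf1r-Cre replicate 2 and -0.70 without control replicate 1. That of *Il6ra* to *Il6st* differed by -0.34 (exact p = 0.7, adjusted 0.9), and changed to 0.30 without MaeaCsf1r-Cre replicate 3. The ratio of *Tnfrsf1b* to *Tnfrsf1a* was the most even, at -0.75 to -0.61 in control and -0.73 to -0.49 in MaeaCsf1r-Cre, and differed by 0.07 (exact p = 0.6, adjusted 0.9), or by 0.0088 without MaeaCsf1r-Cre replicate 2, 0.040 without control replicate 3, 0.11 without control replicate 2 and 0.13 without MaeaCsf1r-Cre replicate 3. Those of *Csf3r* to *Il6st* and of *Il1r1* to its accessory chain *Il1rap* differed by 0.11 and 0.04 (exact p = 0.8 and 0.9, adjusted 0.9).

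**Figure D4:**
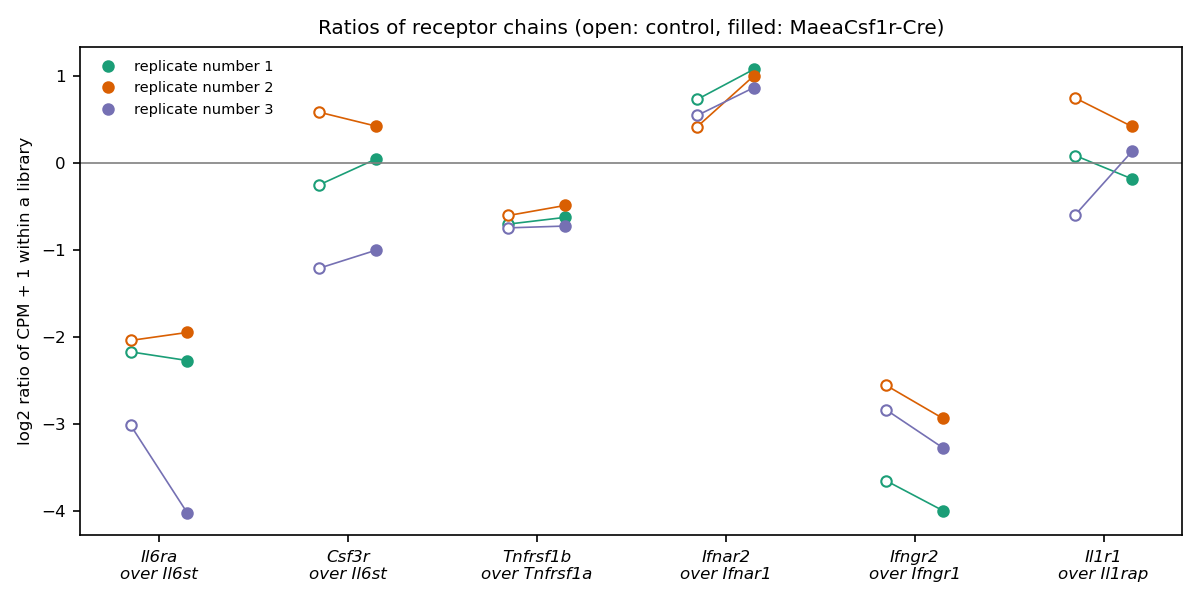
Log2 ratio of CPM + 1 of 2 receptor chains within a library (vertical axis) for 6 chain pairs, with control libraries as open and MaeaCsf1r-Cre libraries as filled points, joined by replicate number. For *Ifnar2* over *Ifnar1* all filled points, at 0.87 to 1.08, lie above all open points, at 0.42 to 0.73, and for the other pairs the groups overlap.

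Levels of different genes were compared per kilobase of exon. In control HSCs *Ifngr1* was highest at 62.1 ± 22.7 CPM per kilobase, followed by *Tnfrsf1a* at 25.3 ± 5.30 and *Ifnar2* at 24.8 ± 3.83 (SD, n = 3 each). *Tnfrsf1b* (10.7 ± 2.67), *Csf3r* (10.5 ± 3.25) and *Ifnar1* (9.47 ± 2.36) formed the middle of the order. *Ifngr2* (5.41 ± 1.29), *Il6st* (4.31 ± 1.75) and *Il1r1* (3.26 ± 1.27) came next, and *Il6ra* was lowest at 0.898 ± 0.0255 CPM per kilobase. Neighbours in this order overlapped in the control libraries except at 4 steps, between *Ifngr1* and *Tnfrsf1a*, between *Ifnar2* and *Tnfrsf1b*, between *Ifnar1* and *Ifngr2*, and between *Il1r1* and *Il6ra*. Among 12473 tested genes with a length, *Ifngr1* stood at the 94.5th percentile of control levels and *Il6ra* at the 11.9th. In MaeaCsf1r-Cre HSCs *Ifnar2* (25.5 ± 0.746) came before *Tnfrsf1a* (21.0 ± 8.24), and the other 8 genes kept their places. With the length of the longest transcript in place of all exons, *Ifnar1* was at 14.4 CPM per kilobase in control and moved up to place 4.

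Several receptor genes were high or low in the same libraries. Control replicate 2 was the highest library for 7 of the 10 genes and MaeaCsf1r-Cre replicate 1 the lowest for 7. *Ifngr1* ran the other way, with MaeaCsf1r-Cre replicate 1 the highest library and a Pearson's r over 6 libraries of -0.70 with *Tnfrsf1a* and -0.73 with *Tnfrsf1b*. MaeaCsf1r-Cre replicate 1 was also the most deeply sequenced library and had the lowest sum of HSC markers, at 801 CPM, and control replicate 2 the highest, at 1774 CPM. The part of these differences in the receptor levels was not tested.

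The cytokines that bind these receptors, or receptors related to them, were scarce in the HSC libraries. *Csf3*, *Lta*, *Ifnb1* and *Ifna4*, the last from a family of near-identical genes that may share reads, were listed at 0 in every library, and *Il6*, *Il1a*, *Tnf* and *Ifng* stayed below 1 CPM. Of 13 ligands 3 were tested. *Il18*, a cytokine of the IL-1 family, was at 7.31, 11.1 and 9.26 CPM in control and 3.09, 5.75 and 6.32 CPM in MaeaCsf1r-Cre, without overlap. Its log2 fold change was -0.79 (SE 0.28, limma adjusted p = 0.967). *Osm*, which encodes oncostatin M, was at 7.89, 8.13 and 4.002 CPM in control and 11.3, 10.2 and 7.80 CPM in MaeaCsf1r-Cre, higher in each same-numbered pair, with a log2 fold change of 0.53 (SE 0.28, adjusted p = 0.967). *Lif*, another gp130 ligand, was named after its values were seen. It was at 0.243, 0.328 and 0.321 CPM in control and 0.804, 0.906 and 0.677 CPM in MaeaCsf1r-Cre, without overlap but below the filter for testing.

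Among 24 related receptor chains 20 were tested, 14 lower and 6 higher, with a median log2 fold change of -0.16, where 60.9% of all tested genes were lower. The median was -0.016 without MaeaCsf1r-Cre replicate 1, -0.10 without control replicate 2, -0.26 without control replicate 1, -0.25 without MaeaCsf1r-Cre replicate 2 and -0.30 without MaeaCsf1r-Cre replicate 3. An unadjusted p under 0.05 was reached by 0 of them, and by 4 lower and 1 higher chains with the replicate block, none with an adjusted p under 0.05 (smallest 0.160 with the block). Over all tested genes the shares with the block were 10.8% lower and 3.11% higher. *Il1r2*, the decoy receptor for IL-1, was at 1.27, 2.57 and 0.906 CPM in control and 0.230, 1.06 and 0.541 CPM in MaeaCsf1r-Cre, with a log2 fold change of -0.66 (SE 0.32). Of the 6 tested chains of the IL-1 family 5 were lower, with a median of -0.21 that was -0.090 without control replicate 2, -0.13 without MaeaCsf1r-Cre replicate 1, -0.32 without MaeaCsf1r-Cre replicate 2 and -0.41 without control replicate 3.

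The 34 signalling proteins below the receptors were all tested, with 24 lower, 10 higher and a median log2 fold change of -0.06, beside -0.06 over all tested genes. With length correction these medians were 0.048 and 0.03. *Jak1*, *Jak2*, *Jak3* and *Tyk2*, the Janus kinases that the receptors share, were all lower in the mean by small steps, with a median of -0.12, but 1 of them was higher after median-ratio rescaling and 2 after length correction. *Tab2*, an adaptor of the IL-1 pathway, was at 29.97 to 31.7 CPM in control and 19.6 to 27.9 CPM in MaeaCsf1r-Cre, with a log2 fold change of -0.31 (SE 0.17).

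Of 23 inhibitors 22 were tested, 13 lower and 9 higher, with a median of -0.12. This median was close to 0 under several settings, at -0.0013 with quantile normalization, 0.012 with length correction, -0.014 without MaeaCsf1r-Cre replicate 1 and -0.018 without control replicate 2, and was -0.069 without control replicate 3 and -0.21 without control replicate 1. *Socs3*, which blocks signalling from gp130 and the G-CSF receptor, was at 10.1, 11.3 and 4.59 CPM in control and 17.4, 39.3 and 18.0 CPM in MaeaCsf1r-Cre. Every MaeaCsf1r-Cre library was above every control library, with a log2 fold change of 1.40 (SE 0.40, limma adjusted p = 0.967, and 0.141 with the block). *Usp18*, which restrains signalling at IFNAR2, was at 16.4, 16.0 and 23.8 CPM in control and 14.2, 11.3 and 12.9 CPM in MaeaCsf1r-Cre, also without overlap. Its log2 fold change was -0.50 (SE 0.20, adjusted p = 0.967).

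Target genes of the pathways fell on both sides. Of 34 genes 30 were tested, 15 lower and 15 higher, with a median of -0.03, and 2 lower and 4 higher genes had an unadjusted p under 0.05, beside 3.19% lower and 0.803% higher of all tested genes. Type I interferon targets were lower for 7 of the 9 tested, where 60.9% of all tested genes were lower. Their median was -0.26 and ranged from -0.53 to -0.16 over the alternatives. *Ifit1*, an antiviral protein gene, was at 7.76, 12.4 and 14.8 CPM in control and 2.31, 3.84 and 7.08 CPM in MaeaCsf1r-Cre, without overlap, with a log2 fold change of -1.28 (SE 0.36, limma adjusted p = 0.967, and 0.101 with the block). *Oas2*, a sensor enzyme for double-stranded RNA, was at 2.73 to 3.91 CPM in control and 1.29 to 1.89 CPM in MaeaCsf1r-Cre, with a log2 fold change of -0.72 (SE 0.22). Type II interferon targets were higher for 9 of the 10 tested, with a median of 0.40 that ranged from 0.29 to 0.66. *Gbp2*, an interferon-induced GTPase, was at 38.1, 67.3 and 38.5 CPM in control and 143, 71.5 and 72.0 CPM in MaeaCsf1r-Cre, with a log2 fold change of 0.95 (SE 0.32) that was 0.62 without MaeaCsf1r-Cre replicate 1 and 0.48 without both libraries numbered 1. *Cd74*, the invariant chain of MHC class II, was at 59.8, 111 and 36.3 CPM in control and 120, 151 and 125 CPM in MaeaCsf1r-Cre, with a log2 fold change of 1.06 (SE 0.35, adjusted p = 0.198 with the block). *Psmb9*, a subunit of the immunoproteasome, went from 126 ± 11.1 to 173 ± 25.6 CPM and *Tap1*, a peptide transporter, from 193 ± 19.4 to 251 ± 23.5 CPM (SD, n = 3 each). The groups of these 4 genes did not overlap, and their adjusted p was 0.967 in limma without the block. *Psmb8*, *Psmb9* and *Tap1* lie close together on chromosome 17. Of the STAT3 targets 4 of 7 were lower, with a median of -0.07, and of the NF-kB targets 3 of 4 tested, with a median of -0.31 that was 0.13 without MaeaCsf1r-Cre replicate 1. Whether the interferon target groups differed from each other was not tested.

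Of 14 genes for receptor shedding and turnover, 11 were lower and 3 higher, with a median of -0.16, where 60.9% of all tested genes were lower. With length correction the median was -0.041, beside 0.03 over all tested genes. *Adam17* and *Adam10*, the proteases that release the ectodomains of IL6RA and the TNF receptors, were at 61.4 ± 8.33 and 182 ± 17.1 CPM in control and at 52.9 ± 10.7 and 159 ± 19.4 CPM in MaeaCsf1r-Cre (SD, n = 3 each). Their groups overlapped, and they are named for their role after their values were seen. *Bace1*, another membrane protease, was at 20.4, 28.8 and 22.5 CPM in control and 8.45, 12.8 and 17.4 CPM in MaeaCsf1r-Cre, without overlap, with a log2 fold change of -0.89 (SE 0.26, limma adjusted p = 0.967, and 0.208 with the block). *Erap1*, an aminopeptidase that binds TNFR1, had a mean of 146 ± 26.7 CPM in control and 175 ± 14.5 CPM in MaeaCsf1r-Cre (SD, n = 3 each), with a log2 fold change of 0.28 (SE 0.16). In none of the 6 lists of ligands, chains, signalling proteins, inhibitors, targets and shedding genes did a gene reach an adjusted p under 0.05 in limma, with or without the block.

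**Figure D5:**
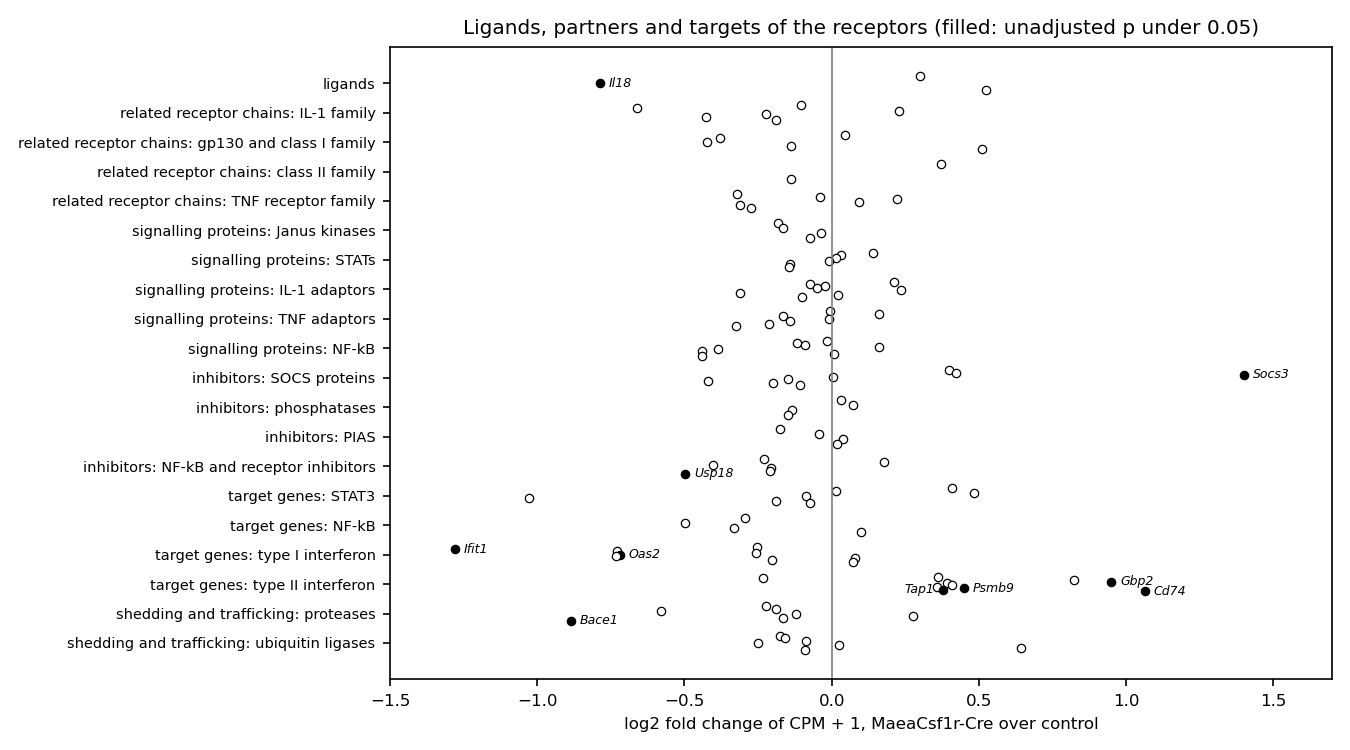
Log2 fold change of CPM + 1 in MaeaCsf1r-Cre over control HSCs (horizontal axis) for the tested genes of the 6 pathway lists, 2 genes excepted, 1 row for each group of genes. Filled points have an unadjusted p under 0.05 in limma and are named. The type II interferon targets lie to the right of 0 for 9 of 10 genes and the type I targets to the left for 7 of 9. Of all tested genes 60.9% were lower.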

How the data were processed

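RNA of 6 HSC libraries was analysed, 3 control and 3 MaeaCsf1r-Cre, grouped by the sample labels. Per the submitters' notes and methods, the authors used SMART-Seq v4 with Nextera XT for the libraries, sequenced single-end, trimmed with Trim Galore, aligned to mm10 with STAR 2.5.3a, quantified to Ensembl transcripts (release 83) and normalised in Partek Flow. Counting by strand is not given in the sources used here. The deposited CPM had an offset of 0.0001, which was subtracted. The listed genes held 75.2 to 80.2% of the scaled total. Among low values, 70.7 to 73.4% were whole reads within 0.02, which did not allow read counts to be rebuilt or a count test to be run. Symbols were matched to GENCODE M21 (GRCm38, 44119 of 46959 rows, with 27 symbols turned into dates) for positions and exon lengths, and promoter windows were taken from RefSeq (GRCm38.p6) for all 10 genes.

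Genes that reached a CPM of 1 in 3 or more libraries entered the test, made on log2(CPM + 1) by limma's moderated test with a mean-variance trend, MaeaCsf1r-Cre against control, two-sided, Benjamini-Hochberg adjusted over 12955 genes, with a threshold of 0.05. Replicate numbers come from the labels. What a shared number stands for is not given there. Deviations of same-numbered libraries correlated across genes (r of 0.627, 0.523 and 0.397, against -0.459 to -0.0538 for others), so a second fit took that number as a block. Each group was centred on its own mean, so positive values for same-numbered libraries by themselves draw the others below 0. The receptor genes and the lists were chosen with earlier results of these data known. All 10 receptor genes are named, and of each list the genes with an unadjusted p under 0.05 and in any case the 2 with the smallest p, with *Maea*, the genes of the ratios, defining markers, and the 3 genes most like the receptor gene of smallest p. The values of 2 genes that this rule names are not reported here. The marker lists not described in the report, as sums in control and MaeaCsf1r-Cre libraries, were granulocyte progenitor (82.1 to 317 and 84.3 to 172 CPM), T and NK cell (50.6 to 76.6 and 51.1 to 97.9 CPM), megakaryocyte (284 to 1318 and 341 to 708 CPM) and genes low in the gated cells (303 to 671 and 230 to 340 CPM). Of the B cell markers, *Pax5* and *Ms4a1* were at 0. The alternatives were a CPM filter of 10 or none, a pseudocount of 0.1, median-ratio rescaling, quantile normalization, the block, no trend, a length correction by loess with a span of 0.5, and each library left out. Leaving out both libraries of a number, and length correction with the block, were added once the data had been seen. The fit was tested on simulated data with a 4-fold change, which does not show how it performs at the smaller changes of the receptor genes. Tests used limma 3.58.1 in R 4.3.3, and tables and figures used pandas 2.3.3, matplotlib 3.10.9 and numpy 2.4.6 in Python 3.11.15.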

Additional observations from a re-analysis of the deposited data

How the results depend on the processing

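No receptor gene and no gene of the pathway lists had an adjusted p under 0.05 in limma under any alternative, with or without the replicate block. Over all genes, 0 were called with the filter at a CPM of 10 (302 at an unadjusted p under 0.05), where *Il6ra* and the ligands were no longer tested, and 12 with length correction and the replicate block together. Between 0 and 3 were called when libraries were left out, with 3 without MaeaCsf1r-Cre replicate 3 and 0 without control replicate 2, without control replicate 3 or without both libraries of any one number. The other alternatives, the replicate block among them, called 1 gene. It was *BC023719*, except with no filter on low values, where it was *Cd209f*, at 0.757 to 0.780 CPM in control and 0 in MaeaCsf1r-Cre. *Csf3r*, *Il6st*, *Il6ra*, *Ifnar1* and *Ifngr2* were lower under every alternative that tested them. The sign of *Il1r1* changed to 0.044 with quantile normalization and to 0.068 with length correction, with or without the replicate block. When libraries were left out, the log2 fold change ranged from -0.30 to 0.22 for *Il1r1*, -0.55 to 0.040 for *Tnfrsf1a*, -0.48 to 0.12 for *Tnfrsf1b*, -0.066 to 0.17 for *Ifnar2* and -0.10 to 0.42 for *Ifngr1*. The difference in ratio ranged from -0.34 to 0.55 for *Csf3r* over *Il6st*, -0.30 to 0.38 for *Il1r1* over *Il1rap* and -0.74 to 0.30 for *Il6ra* over *Il6st*. The cause was not tested. With the replicate block the exact permutation p was 0.25, the smallest that 3 pairs allow, for 3 of the 6 ratios, *Ifnar2* over *Ifnar1*, *Ifngr2* over *Ifngr1* and *Tnfrsf1b* over *Tnfrsf1a*. When libraries were left out, the median ranged from -0.14 to 0.52 for the ligands, -0.11 to 0.018 for the signalling proteins, and -0.21 to 0.080 for the target genes. Rescaling moved the median of all genes from -0.06 to 0.00 (median ratios), 0.02 (quantile) and 0.03 (length). The median standard error of a log2 fold change was 0.199 over all tested genes, and it was 0.14 to 0.59 for the receptor genes. Library depth is given by estimate only, and by that estimate no receptor gene rested on fewer than about 142 reads.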

Other observations

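Among the 12 genes that passed the threshold with length correction and the replicate block together, a fit added after the data were seen, 1 was a cytokine receptor gene outside the lists above. *Csf2rb*, the chain shared by the receptors for GM-CSF, IL-3 and IL-5, was at 19.9, 23.8 and 18.5 CPM in control and 41.2, 60.7 and 36.5 CPM in MaeaCsf1r-Cre replicates 1, 2 and 3, above every control library. It has a near-identical neighbour, *Csf2rb2*, so its reads may be split between both. In that fit its log2 fold change was 1.23 (SE 0.14, limma adjusted p = 0.0371). *BC023719*, *C4b*, *Vldlr*, *H2-Aa*, *H2-Ab1* and *Tjp1* were higher in the same fit, with log2 fold changes of 3.34, 1.88, 1.66, 1.47, 1.33 and 1.25. The other 5 genes were lower. *C1qb* and *C1qc*, which encode chains of complement C1q and are on the macrophage marker list, had log2 fold changes of -2.56 and -2.46, *Fcna* -2.25, *Ifi44*, an interferon-induced gene, -1.13, and *Trpc6* -1.05. The genes were named after their values were seen, and under the other alternatives *Csf2rb* was not called.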
